A study of Mus musculus with 6 samples.

Results

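The snoRNA host transcripts described here are 9 mouse noncoding RNAs, Snhg1, Snhg3, Snhg5, Snhg6, Snhg8, Snhg12, Snhg16, Zfas1 and Gas5, taken by symbol. All 9 were represented on the array, by 19 of the 34848 probe sets whose platform annotation names exactly 1 gene, and 2 more probe sets that name a host together with another gene were left out. The arrays carried RNA of whole adrenal glands, cortex and medulla together, from 3-month-old males of genotype Per2Brdm1/Cry1-/- on a C57BL6x129Sv background. The tissue was collected 54 h (3 arrays) or 46 h (3 arrays) after lights off, once mice that had spent 2 weeks in a light-dark cycle had been moved to constant darkness. All animals of both groups carried both mutations, and since Per2 and Cry1 encode clock repressors, the labels call such mice clock-deficient. Glands with a working clock were not analysed here, and anything else that differed between the collections cannot be told apart from the 8 h between them.

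Small nucleolar RNAs (snoRNAs) guide the chemical modification and processing of ribosomal RNA, C/D box snoRNAs directing 2′-O-methylation and H/ACA box snoRNAs pseudouridylation. In mammals most are cut out of the introns of host genes after splicing. The spliced exons of a noncoding host are left as a by-product that is exported and, for several hosts, destroyed quickly by nonsense-mediated decay when ribosomes read it, so the level of the spliced host reflects decay as well as transcription. Many host transcripts start, like those of ribosomal protein genes, with a C followed by a run of pyrimidines, the terminal oligopyrimidine (TOP) tract, which ties their translation to growth signalling through mTOR.

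In the RefSeq annotation (assembly GRCm38.p6), all 9 hosts are long noncoding RNAs and all contain snoRNA genes. Snhg1 and Gas5 hold 8 each, Snhg12 holds 4, Snhg16 and Zfas1 hold 3 each, Snhg3 and Snhg5 hold 2 each, and Snhg6 and Snhg8 hold 1 each. The named ones are Snord22 in Snhg1, Snord47 in Gas5, Snord1a, Snord1b and Snord1c in Snhg16, Snord12 in Zfas1 and Snord87 in Snhg6, all of the C/D class. Snhg3 holds Snora73a and Snora73b and Snhg8 holds Snora24, of the H/ACA class, and Snhg12 holds both kinds (Snora16a, Snora44, Snora61 and Snord99).

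The start sites are shown because a TOP tract or a TATA box at the start would be a feature shared by these hosts that played no part in choosing them. RefSeq (GRCm38.p6) gave 9 promoter windows for 8 of the hosts, 2 of them for Gas5; Snhg6 was not matched. Each line below gives 60 bases before and 50 bases from the annotated start onward, 5′ to 3′ on the transcribed strand, with capitals marking the longest run of C or T between 10 bases before and 20 bases after the start.
Snhg1, chr19:8723427-8723536, plus strand: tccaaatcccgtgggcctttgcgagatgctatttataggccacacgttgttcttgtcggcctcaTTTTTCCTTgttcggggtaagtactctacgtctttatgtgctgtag
Snhg16, chr11:116671600-116671709, plus strand: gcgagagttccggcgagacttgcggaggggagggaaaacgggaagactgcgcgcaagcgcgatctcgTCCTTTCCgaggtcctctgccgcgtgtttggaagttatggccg
Zfas1, chr2:167062874-167062983, plus strand: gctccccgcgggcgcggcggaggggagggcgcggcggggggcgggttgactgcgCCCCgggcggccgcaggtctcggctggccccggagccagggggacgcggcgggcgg
Snhg5, chr9:88522848-88522957, minus strand: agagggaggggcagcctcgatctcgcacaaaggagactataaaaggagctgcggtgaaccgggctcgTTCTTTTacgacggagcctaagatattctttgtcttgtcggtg
Snhg12, chr4:132308618-132308727, plus strand: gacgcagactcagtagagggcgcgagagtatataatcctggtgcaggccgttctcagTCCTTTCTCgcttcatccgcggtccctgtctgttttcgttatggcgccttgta
Gas5 upstream start, chr1:161034541-161034650, plus strand: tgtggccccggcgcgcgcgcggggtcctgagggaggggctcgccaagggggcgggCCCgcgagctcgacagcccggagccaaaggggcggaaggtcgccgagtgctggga
Gas5 downstream start, chr1:161035106-161035215, plus strand: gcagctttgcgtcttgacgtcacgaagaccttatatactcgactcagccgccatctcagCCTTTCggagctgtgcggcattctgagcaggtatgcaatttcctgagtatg
Snhg8, chr3:123508287-123508396, minus strand: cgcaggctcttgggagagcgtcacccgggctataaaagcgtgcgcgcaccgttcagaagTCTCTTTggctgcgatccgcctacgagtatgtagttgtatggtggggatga
Snhg3, chr4:132353637-132353746, minus strand: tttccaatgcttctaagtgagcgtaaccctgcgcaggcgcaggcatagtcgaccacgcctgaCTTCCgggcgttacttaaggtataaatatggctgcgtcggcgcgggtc

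The longest pyrimidine run near the start was 9 bases in Snhg1 and Snhg12, 8 in Snhg16, 7 in Snhg5 and Snhg8 and 6 at the downstream start of Gas5. Runs of at least 7 bases stood in 5 of the 9 windows, against 17.9% of all 32851 promoter windows in the table, whose median run was 4 bases. All 5 of these host runs of at least 7 bases began with a T. They began at base 5 of the transcript in Snhg1 and base 8 in Snhg16 and Snhg5. In Snhg8 and Snhg12 they began 1 and 3 bases before the start. Runs of at least 6 bases stood in 6 of the 9 windows, against 28.7% of all. The added run, at the downstream Gas5 start, began with a C 1 base before the start. Both there and in Snhg8, base 1 of the annotated transcript was a C followed by further pyrimidines. A run was counted without regard to its place or first base, so it need not be a TOP tract. The shortest runs were those of Snhg3 (5 bases), Zfas1 (4 bases) and the upstream start of Gas5 (3 bases). The Zfas1 window is rich in G and C and had neither a run of at least 7 bases nor TATAAA or TATATA in its 300 bases. The letters TATAAA or TATATA, which can overlap each other, lay between 45 and 16 bases before the start on the transcribed strand in 4 windows, those of Snhg5, Snhg8, Snhg12 and the downstream Gas5 start, against 2.96% of all windows. Searched on both strands over the full 300 bases, they were present in 6 windows, against 17.1% of all. The E-box letters CACGTG, bound by CLOCK and BMAL1 in clock genes, were in 0 of the 9 windows of 300 bases, against 7.15% of all, searched on both strands. These counts describe the annotated windows only, and a start used in the adrenal may differ from the annotated one.

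Over the 6 arrays the median intensity was 204 to 217 units and the highest value 17879. The cortex markers Star, Cyp11a1, Cyp11b1, Cyp21a1, Hsd3b1, Mc2r and Nr5a1 and 5 of 6 medulla markers (Th, Dbh, Pnmt, Chga and Chgb) were measured, and their summed intensities per array were at least 88117 units for the cortex and 49883 units for the medulla. Of the 19 host probe sets 16 had a mean above the filter on dim values, and 3, from Snhg1 and Snhg16, lay under it. The comparison was made in limma on log2(intensity + 16) over all 26961 probe sets past that filter, so differences below are on that scale, are 54 h minus 46 h, and carry the standard error (SE) of that fit. The hosts were chosen by symbol after earlier results of this comparison, the 54 h minus 46 h differences of Zfas1 and Snhg1 among them, had drawn attention to such transcripts. The differences of all hosts are therefore given as a description. No p-value is given for a host, and calls of the fit are only counted beside the share called over all probe sets.

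**Figure D1:**
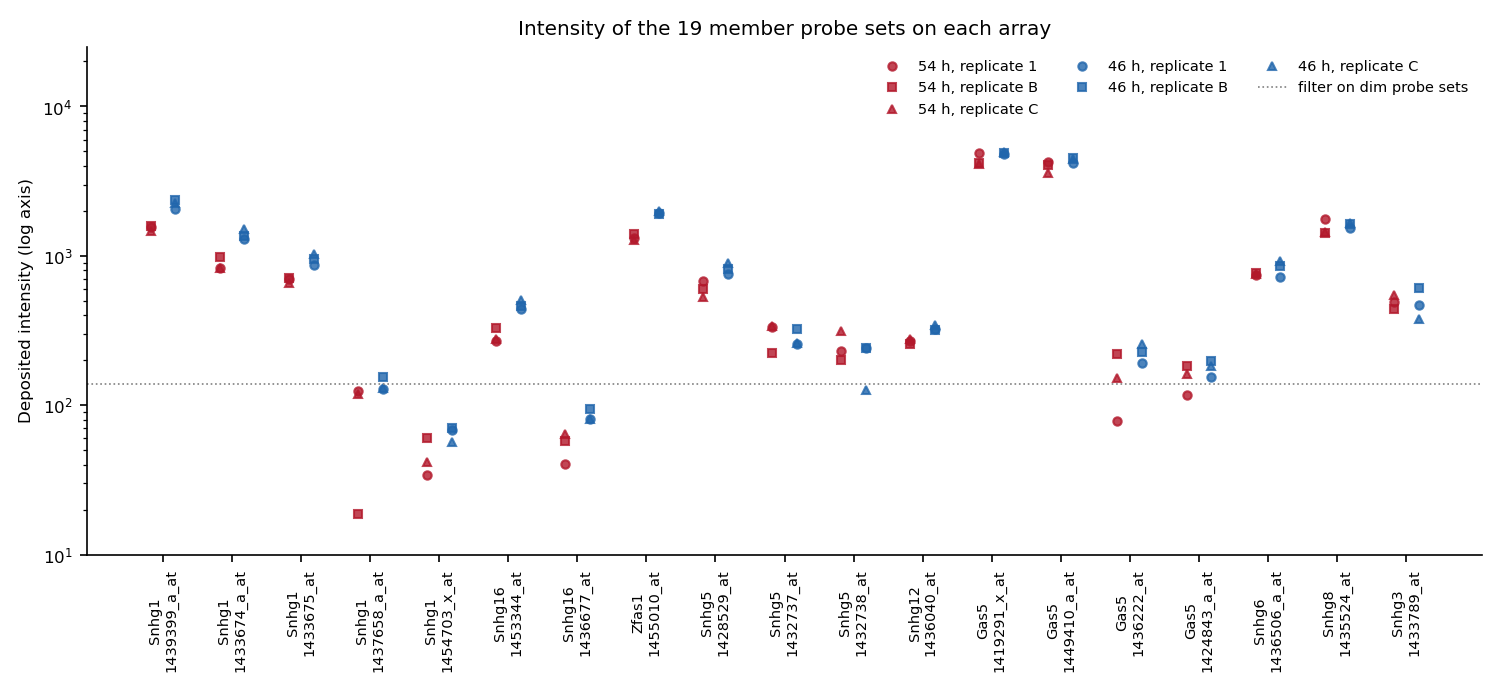
Deposited intensity (vertical log axis) of each of the 19 host probe sets on each array, with the 54 h arrays in red left of the 46 h arrays in blue and 1 symbol per replicate; the dotted line is the filter on dim probe sets. The 54 h points of Zfas1, Snhg12, the brighter Snhg16 probe set and the 3 bright Snhg1 probe sets lie below their 46 h points, while those of Snhg3, Snhg6 and Snhg8 overlap.

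Read from its brightest probe set, 8 of the 9 hosts had a lower mean log2 value at 54 h, and the median difference of the 9 was -0.28, with a range from -0.66 to 0.04. The median over all probe sets tested was -0.02, and 55.6% of them were below 0. In 5 hosts, Snhg1, Snhg5, Snhg12, Snhg16 and Zfas1, every 54 h array lay below every 46 h array. Counted by probe set, this held for 7 of the 16 tested, where the background over all probe sets tested was 9.05%. Only 1 of the 16, that of Zfas1, was called at an adjusted p of 0.05 in limma, where the background was 0.115% in either direction. With the limma p unadjusted, 8 of the 16 passed 0.05 as lower and 0 as higher, against a background of 5.75% lower and 4.34% higher. Because these counts come from the comparison that prompted the choice, nothing is read from them about snoRNA hosts as a class.

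Zfas1, an antisense transcript from the start of the Znfx1 gene and host of Snord12, has 1 probe set. At 54 h it read 1311 (replicate 1), 1401 (B) and 1279 (C) units, against 1924, 1900 and 2007 units in the same order at 46 h, and all triplets of values below follow this order. The groups are separated by a gap far wider than the spread within either. The means were 1330 ± 62.9 units at 54 h and 1944 ± 56.4 units at 46 h (SD, n = 3 each), a log2 difference of -0.54 ± 0.08 SE, or 1.46-fold lower. The size of this difference ran from -0.58 to -0.51 when 1 array was left out in turn. Its call was less steady: it was kept without 54h replicate B and lost without each of the other 5 arrays, and it was also lost with arrays centred on their medians, without an intensity trend and with the replicate label as a block, which each left 0 host probe sets called.

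Snhg1, the noncoding host of Snord22 (U22) and its neighbours, has 5 probe sets, and all 5 had lower means at 54 h. The brightest (1439399_a_at) read 1568, 1591 and 1474 units at 54 h, against 2057, 2365 and 2267 units at 46 h, a log2 difference of -0.52 ± 0.08 SE. The next (1433674_a_at) read 831, 977 and 823 units at 54 h, against 1299, 1368 and 1503 units at 46 h, a log2 difference of -0.66 ± 0.10 SE. Another bright probe set (1433675_at) had 702, 706 and 661 units at 54 h, against 873, 950 and 1030 units at 46 h, a log2 difference of -0.45 ± 0.10 SE. All 3 separated the time points on every array. They also followed each other closely over the 6 arrays, with Pearson's r of 0.97 to 0.98, although 2 of them are designed on the same target sequence in the platform's annotation. The remaining 2 were under the filter. One of these (1437658_a_at) read 18.7 units on 54h replicate B and 119.6 and 123.8 units on the other 54 h arrays, against 128.9 to 155.8 units at 46 h, and its difference of -0.82 includes that far lower value. The other (1454703_x_at) read 34.0 to 60.6 units at 54 h, against 56.4 to 70.6 units at 46 h, and overlapped.

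Snhg16, the host of the Snord1 family, had the most negative difference among the brightest probe sets. That probe set (1453344_at) read 271, 327 and 278 units at 54 h, against 443, 459 and 509 units at 46 h, a log2 difference of -0.66 ± 0.12 SE or 1.58-fold lower. All 54 h arrays were below all 46 h arrays. Its dimmer probe set (1436677_at), under the filter, read 40.7, 58.0 and 64.7 units at 54 h, against 81.5, 94.8 and 80.8 units at 46 h, a difference of -0.54. The probe sets of Snhg16 thus had the same sign and the same separation of the groups, with r = 0.85 between them over the 6 arrays.

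Snhg12, which holds both classes of snoRNA, read 269, 259 and 277 units at 54 h, against 322, 318 and 347 units at 46 h. The arrays of each time point lay close together, and the log2 difference was -0.28 ± 0.11 SE. This difference is smaller than those of Zfas1, Snhg1 and Snhg16, yet the groups did not overlap.

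Snhg5, the host of the U50 snoRNAs, gave different answers from its 3 probe sets. The brightest (1428529_at) read 683, 599 and 532 units at 54 h, against 761, 816 and 894 units at 46 h, a log2 difference of -0.44 ± 0.12 SE with no overlap. The other 2, designed on 1 shared target sequence that differs from that of the brightest, did not follow it. One (1432737_at) read 332, 224 and 341 units at 54 h, against 257, 325 and 261 units at 46 h, a difference of 0.07 ± 0.17 SE. The other (1432738_at) read 229, 199 and 315 units at 54 h, against 242, 243 and 126 units at 46 h, a difference of 0.29 ± 0.25 SE. Their r with the brightest was -0.15 and -0.66. The lower Snhg5 level at 54 h therefore holds for 1 of 3 probe sets, and with the mean over all 3 the difference was -0.03.

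Gas5, whose exons are known in human cells to bind the glucocorticoid receptor in addition to its role as a C/D host, split into 2 pairs of probe sets. The brightest (1419291_x_at) read 4845, 4196 and 4131 units at 54 h, against 4786, 4915 and 4951 units at 46 h, a log2 difference of -0.16 ± 0.07 SE. On 54h replicate 1 it was inside the 46 h range, whereas replicates B and C were below it. The second bright probe set (1449410_a_at) showed much the same, with 4260, 4063 and 3594 units at 54 h, against 4167, 4538 and 4462 units at 46 h, and a difference of -0.15 ± 0.07 SE. In the dimmer pair the arrays took another order: 54h replicate 1 was the lowest of all 6. One (1436222_at) read 78.0, 219.5 and 152.7 units at 54 h, against 192.3, 227.6 and 255.7 units at 46 h, a difference of -0.63 ± 0.29 SE. The other (1424843_a_at) read 117.6, 183.9 and 161.8 units at 54 h, against 154.4, 196.4 and 182.3 units at 46 h, a difference of -0.20 ± 0.17 SE. Over the 6 arrays r was 0.87 within the bright pair and 0.94 within the dim pair, but between -0.11 and 0.26 across the pairs. The suffix _x_at of the brightest marks probes that can also bind other sequences.

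Snhg6, Snhg8 and Snhg3, each with 1 probe set, overlapped between the time points. Snhg6, the host of Snord87, read 748, 772 and 755 units at 54 h, against 721, 852 and 921 units at 46 h, a log2 difference of -0.12 ± 0.11 SE. Its 54 h values all fell inside the 46 h range. Snhg8, the host of Snora24, read 1776, 1415 and 1434 units at 54 h, against 1541, 1632 and 1658 units at 46 h, a difference of -0.07 ± 0.10 SE; the highest and the lowest of all 6 values were both from 54 h. Snhg3, the host of the Snora73 (U17) snoRNAs, read 492, 438 and 544 units at 54 h, against 469, 610 and 379 units at 46 h, a difference of 0.04 ± 0.17 SE. Here the 46 h arrays were spread more widely than those of 54 h. The 2 hosts that hold only H/ACA snoRNAs, Snhg3 and Snhg8, were thus the ones nearest to 0 among the brightest probe sets; this grouping by class followed inspection of the values and has no test.

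**Figure D2:**
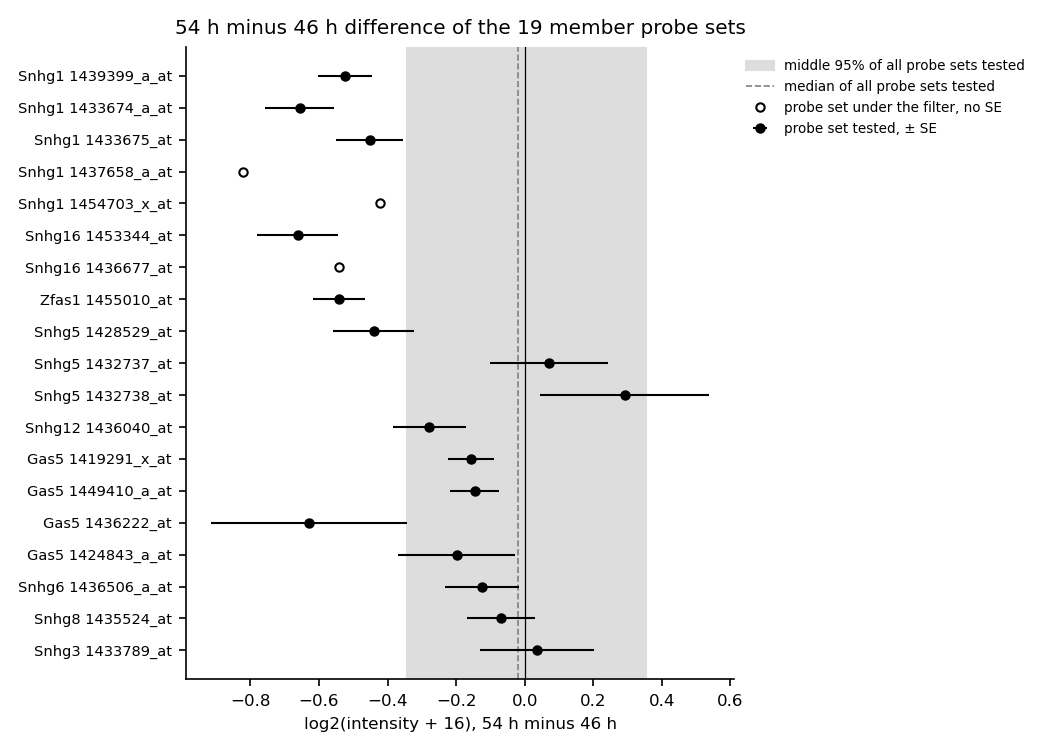
Difference in log2(intensity + 16), 54 h minus 46 h, for each host probe set (horizontal axis), with the SE of the limma fit as bars and open circles for the 3 probe sets under the filter; grey marks the middle 95% of all probe sets tested (-0.34 to 0.35). All probe sets of Snhg1, Snhg16 and Zfas1 lie left of the grey band. Those of Snhg5 differ in sign, and the 4 of Gas5 are all below 0 but differ in size.

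Set out by array, the hosts did not move as a block. Relative to the 46 h mean, Zfas1 stood at -0.56, -0.47 and -0.60 on 54h replicates 1, B and C, and Snhg1 at -0.50, -0.48 and -0.59. For these hosts the 3 arrays were close to each other. Snhg5 stood at -0.26, -0.45 and -0.61, Gas5 at -0.01, -0.22 and -0.24, and Snhg8 at 0.14, -0.18 and -0.17, so that 54h replicate 1 was the highest 54 h array for these hosts. Over the 6 arrays, Pearson's r among the brightest probe sets of Snhg1, Snhg5, Snhg12, Snhg16 and Zfas1 was 0.86 to 0.99 for the 10 pairs, highest for Snhg16 with Zfas1. The r of Snhg3 with the other 8 hosts was -0.27 to -0.03. These correlations describe 6 points that share their arrays, their scaling and the step between the time points, which raises r.

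**Figure D3:**
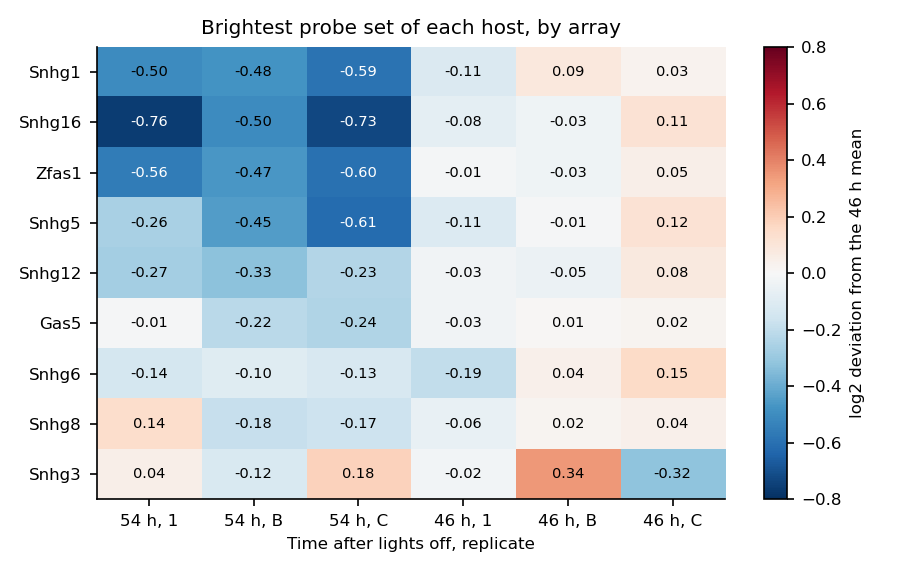
Deviation of the brightest probe set of each host from its own mean over the 46 h arrays, in log2(intensity + 16), with the 54 h arrays in the 3 columns on the left and the 46 h arrays on the right (blue lower, red higher). Snhg1, Snhg16 and Zfas1 are at -0.47 or below on all 3 of the 54 h arrays, and Snhg3 shows no common direction.

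Some measures outside the hosts also differed between the time points. The 7 cortex and 5 medulla markers measured all had differences below 0, with medians of -0.05 and -0.07. Their sums overlapped: 88117 to 95839 units at 54 h against 92056 to 97029 units at 46 h for the cortex. For the medulla they were 49883 to 54886 units at 54 h against 52619 to 55989 units at 46 h. Both sums were lowest on 54h replicate 1. Markers of immune cells, all 8 of them measured, summed to 25135 to 25518 units at 54 h, against 27722 to 28724 units at 46 h. Of the 8, 6 were lower, where 55.6% of all probe sets tested were. Liver markers, 10 of 11 measured, summed to 12098 to 14590 units at 54 h, against 6047 to 9488 units at 46 h. The 9 tested all had differences above 0, with a median of 0.79, and 7 were higher on every 54 h array. Of these, 1 was called, Serpina1b (1.10 ± 0.14 SE, limma adjusted p = 0.0343). Blood cell markers, 3 of 4 measured, summed to 1747 to 2199 units at 54 h, against 1245 to 1684 units at 46 h. Hbb-b2 (1.04 ± 0.12 SE, limma adjusted p = 0.0288) and Alas2 (0.54 ± 0.17 SE, limma adjusted p = 0.335) were higher on every 54 h array. The remaining marker, Hba-a1, had a lower mean at 54 h (-0.30 ± 0.30 SE) and overlapped. Adipose markers, 5 of 7 measured, overlapped as a sum, with 24290 to 29620 units at 54 h, against 22368 to 28295 units at 46 h. Among them, Cidea (0.67 ± 0.17 SE), Lep (0.59 ± 0.19 SE) and Ucp1 (0.56 ± 0.22 SE) were higher on every 54 h array. Adipoq (-0.11 ± 0.11 SE) and Fabp4 (-0.06 ± 0.07 SE) were slightly lower at 54 h and overlapped. The share of all probe sets with every 54 h array above every 46 h array was not counted. The markers higher on every 54 h array therefore have no background beside them, and nothing is read from their number. In each of these lists 0 markers were at 0 on all arrays. The control probe set for the 3′ part of 18S ribosomal RNA, a target of snoRNA-guided modification, read 2395, 1526 and 1751 units at 54 h, against 1154, 1143 and 1350 units at 46 h. That for the 5′ part read 584, 227 and 231 units at 54 h, against 157, 175 and 199 units at 46 h, and that for the middle overlapped, with 1065, 513 and 544 units at 54 h, against 369, 473 and 560 units at 46 h. All 3 were highest on 54h replicate 1. As a sign of RNA quality, the ratio of the 3′ to the 5′ Gapdh control was 1.003, 0.958 and 0.915 at 54 h, against 1.049, 0.972 and 0.968 at 46 h, and that of Actb was 1.57, 1.48 and 1.48 at 54 h, against 1.55, 1.47 and 1.46 at 46 h. The part of these measures in the host values was not tested. In whole glands, fewer cells of a type and less RNA per cell cannot be told apart.

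The proteins that build snoRNPs, the factors that release snoRNAs and destroy host exons, and other host genes were set beside the 9 hosts. Of 97 genes on 7 lists of this machinery and of other hosts, 77 had a single-gene probe set and 74 were tested. In limma 0 of the 74 were called, against 0.115% of all probe sets tested. At an unadjusted p of 0.05, 5 of the 74 were lower and 2 were higher, against 5.75% lower and 4.34% higher over all probe sets. The median difference over the 74 was -0.03, near the median of all probe sets tested.

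Among core snoRNP proteins 0 of 7 were called and 1 was higher at an unadjusted p of 0.05, with a median of -0.02. This was Nop56, a C/D core protein and itself a snoRNA host, which read 1328, 1165 and 1159 units at 54 h, against 900, 862 and 1031 units at 46 h (0.38 ± 0.10 SE, limma adjusted p = 0.253). Its groups did not overlap, in the direction opposite to that of Zfas1 and Snhg1. The methyltransferase gene Fbl had 0.16 ± 0.08 SE and the H/ACA protein gene Gar1 had -0.14 ± 0.08 SE. Among 11 assembly factors 0 were called and 0 reached an unadjusted p of 0.05 in limma, with a median of -0.07; those with the smallest p were Ruvbl1 (-0.16 ± 0.11 SE), Pih1d1 (0.13 ± 0.11 SE) and Znhit6 (-0.12 ± 0.11 SE).

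Of the nonsense-mediated decay factors 9 were tested. In limma 0 were called and 0 reached an unadjusted p of 0.05. All 9 had a difference below 0, where 55.6% of all probe sets tested did, with a median of -0.06 and a range from -0.22 to -0.01. Eif4a3, measured but under the filter, had 0.31. Smallest in p were the exon junction protein gene Casc3 (-0.16 ± 0.08 SE), Smg5 (-0.22 ± 0.13 SE), which recruits decay enzymes, and the kinase gene Smg1 (-0.14 ± 0.10 SE). For intron release and exonucleases 12 were tested, 0 were called in limma and 1 was lower at an unadjusted p of 0.05, with a median of -0.08. That gene was the exosome subunit Exosc7 with 916, 989 and 917 units at 54 h, against 1036, 1238 and 1173 units at 46 h (-0.28 ± 0.10 SE, limma adjusted p = 0.368). Exosc3, another exosome subunit, had -0.29 ± 0.16 SE and the nuclear exonuclease gene Xrn2 had -0.16 ± 0.09 SE. Of 6 genes that control translation of TOP transcripts 0 were called and 0 reached an unadjusted p of 0.05 in limma, with Mtor at 0.14 ± 0.07 SE, Eif4ebp2, a repressor of cap-dependent translation, at 0.40 ± 0.20 SE and Larp1, which binds TOP tracts, at -0.16 ± 0.08 SE.

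Coding genes that carry snoRNAs in their introns in mouse or human, many of them for ribosomal proteins, numbered 22 tested, with 0 called in limma and a median of -0.01. At an unadjusted p of 0.05 in limma, 1 was lower and 1 was higher, against 5.75% lower and 4.34% higher over all probe sets. The higher one was again Nop56, and the lower one was Eif4a2, a translation initiation helicase and host of H/ACA and C/D snoRNAs, with 5445, 6264 and 5704 units at 54 h, against 6850, 6773 and 7334 units at 46 h (-0.27 ± 0.06 SE, limma adjusted p = 0.166). Its groups did not overlap, and it was called without 54h replicate B. Eef1b2, a translation elongation factor gene, had 0.08 ± 0.04 SE. Some coding hosts read near the array's maximum, such as Rpl13a with 15274 ± 429 units at 54 h and 15952 ± 140 units at 46 h (SD, n = 3 each). A change might be understated there, which was not tested. Rpl13a was picked as the example with its values in view.

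Of 13 noncoding genes listed as hosts outside the 9, 9 were tested and 0 were called in limma. Whether each of these, Meg3 included, holds a snoRNA gene was not checked in the annotation, as it was for the 9 hosts. At an unadjusted p of 0.05 in limma, 3 were lower and 1 was higher, against 5.75% lower and 4.34% higher over all probe sets. Their median was -0.20, with 6 of the 9 below 0, where 55.6% of all probe sets tested were. Meg3, an imprinted noncoding RNA, read 560, 2343 and 1569 units at 54 h, against 3415, 4811 and 4238 units at 46 h (-1.68 ± 0.41 SE, limma adjusted p = 0.210). Every 54 h array was below every 46 h array, but the 54 h arrays were spread several-fold among themselves. Rian, a host of C/D snoRNAs in the same imprinted cluster, read 143, 298 and 239 units at 54 h, against 369, 318 and 355 units at 46 h (-0.63 ± 0.22 SE, limma adjusted p = 0.370). For Meg3 and Rian alike, 54h replicate 1 was the lowest array. Meg3 was called when 54h replicate B was left out. Snhg18 went the other way, with 952, 851 and 1018 units at 54 h, against 687, 722 and 777 units at 46 h (0.36 ± 0.10 SE, limma adjusted p = 0.284).

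**Figure D4:**
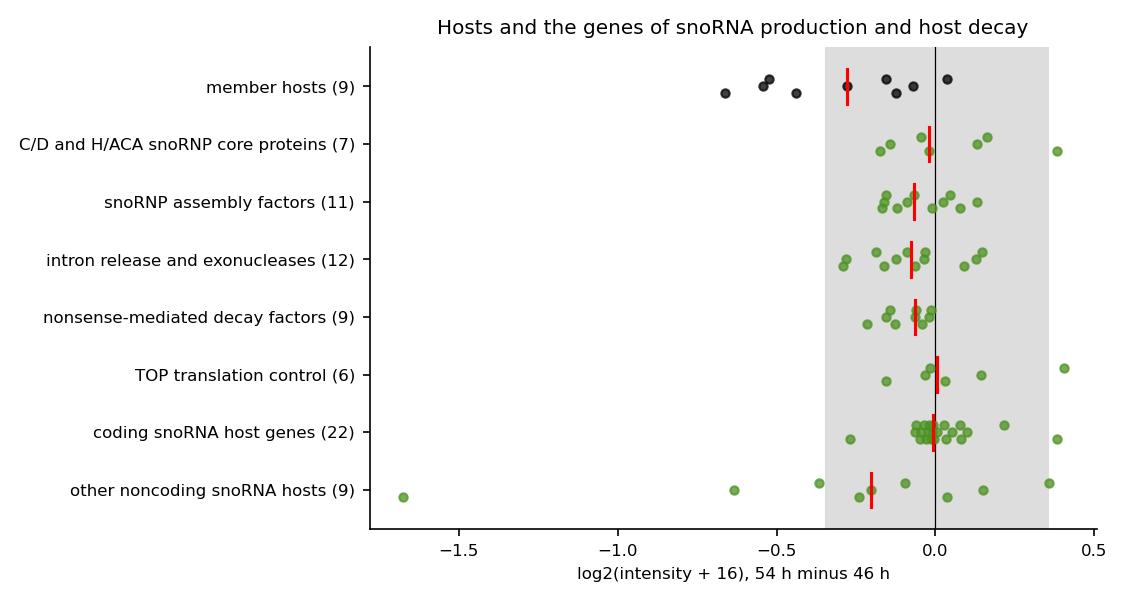
Difference in log2(intensity + 16), 54 h minus 46 h (horizontal axis), of the 9 hosts in black and of the tested genes of 7 lists in green, each gene as 1 point, with the number of genes in brackets, red bars for medians and grey for the middle 95% of all probe sets tested. The medians of the machinery lists and coding hosts lie between -0.08 and 0.01, and that of the genes listed as other noncoding hosts at -0.20.

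Coding neighbours gave a comparison outside the choice of the hosts. For each host the nearest coding gene in RefSeq was taken, and 7 of the 9 were tested. In limma 0 of the 7 were called, against 0.115% of all probe sets tested, so the count says little. At an unadjusted p of 0.05 there were 0, against 5.75% lower and 4.34% higher over all. The differences ran from -0.25 to 0.07. Znfx1, which overlaps Zfas1 on the opposite strand, read 566 ± 86.0 units at 54 h and 626 ± 105 units at 46 h (SD, n = 3 each), a log2 difference of -0.14 ± 0.15 SE (limma adjusted p = 0.802). Slc3a2, an amino acid transporter subunit whose gene starts beside Snhg1 on the other strand, had 6022 ± 573 units at 54 h and 6418 ± 152 units at 46 h (SD, n = 3 each), a difference of -0.10 ± 0.07 SE (limma adjusted p = 0.665). Trnau1ap beside Snhg12 had -0.16 ± 0.10 SE and St6galnac2 beside Snhg16 had -0.11 ± 0.14 SE. Whether a host differed more than its neighbour was not tested.

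The genes whose profile over the 6 arrays was most like the mean profile of the 9 hosts were Ypel1, Rit1, Fyb, Eif5 and Get4, with Pearson's r of 0.992 to 0.998 among 13771 genes compared. Eif5, a translation initiation factor gene, read 3568, 3403 and 3474 units at 54 h, against 4090, 4375 and 4319 units at 46 h, a log2 difference of -0.29. The small GTPase gene Rit1 read 1286, 1213 and 1211 units at 54 h, against 1456, 1633 and 1627 units at 46 h, a difference of -0.34. Ypel1, Fyb and Get4 had differences of -0.21, -0.27 and -0.23. In all, r exceeded 0.9 for 294 of these genes and 0.95 for 82. The highest of many correlations over 6 arrays were taken, and the host profile holds the difference that prompted the choice.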

How the data were processed

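RNA from 6 samples of whole adrenal gland was measured on 1 Affymetrix mouse array each, 3 at 54 h and 3 at 46 h. The values are the authors' deposited intensities, linear, with 1 value for each probe set on each array; how probes were summarised, background corrected and scaled is not given in the sources used here. Of 45001 probe sets, 64 controls, 1 without values and 1 with a damaged value were left out. Names come from the platform's annotation, checked by gene ID in RefSeq GRCm38.p6, which changed 0 symbols. Values were transformed to log2(intensity + 16). The 26961 probe sets whose mean log2 value lay above the 40th percentile (139 units) were compared with limma 3.58.1 in R 4.3.3 (lmFit, eBayes with an intensity trend; two-sided; Benjamini-Hochberg adjustment over all of them; threshold 0.05). A permutation test of 3 against 3 arrays cannot go below p = 0.1, so none was run. The fit was tested on simulated data. No label ties an array to an animal; p-values therefore reflect only how these samples vary, and part of that variation may be technical.

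The 9 hosts and all gene lists were chosen with earlier results of these data known. Every single-gene probe set of the 9 hosts is described. From each pathway list the genes with the smallest p, up to 3, were named, with Rpl13a added as an example of a bright coding host. The 5 genes with the array profile most like that of the hosts were named too. A gene with several probe sets is read from its brightest. Alternatives were other scalings, filters, offsets (1 and 64) and variance models, the replicate label as a block, the mean over a gene's probe sets, and leaving out each array. Python 3.11.15 and matplotlib 3.10.9 made the tables and plots.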

Additional observations from a re-analysis of the deposited data

How the results depend on the processing

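The median difference of the 9 hosts, -0.28, cannot be changed by 5 of the 16 alternatives (other filters, other variance models and the block). In the other 11 it ran from -0.30 to -0.24 and moved by less than the spread between arrays. The median was the difference of Snhg12 in every setting, so its steadiness is that of 1 probe set. Over the same alternatives, Snhg3 ran from -0.12 to 0.21. With the mean over all probe sets of a gene in place of the brightest, Snhg5 had -0.03 instead of -0.44 and Gas5 -0.28 instead of -0.16; the dimmer probe sets that enter these means show the cause. The number of member probe sets called in limma, 1 in the setting reported, was 3 with quantile normalization, 3 with the filter at the 60th percentile, 3 with a robust fit, 0 with arrays centred on their medians, 0 without an intensity trend and 0 with the replicate label as a block. It ran from 0 to 2 when 1 array was left out. Wherever a member was called in these settings, it was Zfas1 or Snhg1. The number called over all probe sets, 31, was 47 with quantile normalization, 48 with the filter at the 60th percentile, 61 with a robust fit, 3 without an intensity trend and 45 with the replicate label as a block, and ran from 2 to 65 when 1 array was left out. Of the calls, 22 of 47 were lower at 54 h with quantile normalization and 12 of 31 with arrays centred on their medians, against 15 of 31 as reported. The cause of these shifts was not tested.

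The labels do not say whether arrays of the same replicate name were collected or processed together. Deviations from the group means correlated at -0.06, -0.41 and -0.49 between arrays of the same name (replicates 1, B and C), and at -0.04 to 0.46 between arrays of different names, highest for 54h replicate C with 46h replicate B (0.46) and 54h replicate B with 46h replicate C (0.38). Deviations within a group cancel out, so these correlations constrain each other and cannot decide whether the names pair the arrays. With the block, 1 gene listed among the other noncoding hosts, Meg3, was called. Without 54h replicate B, Meg3 and the coding host Eif4a2 were called. The counts called on the lists of other noncoding and of coding hosts thus ran from 0 to 1 when 1 array was left out. Of the genes on the other pathway lists 0 were called in any of the 16 settings fitted. The number of arrays limits the precision, and dim probe sets lie close to background.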
